A study of Mus musculus with 6 samples.

Results

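Protocadherins and the type I, type II and atypical cadherins other than E-cadherin and N-cadherin were followed through the accessible chromatin of mouse embryonic stem cells leaving the ground state. The genes were all protein-coding genes whose symbol starts with Pcdh, or with Cdh and a digit, except Cdh1 and Cdh2. There were 90 of them, 57 in the Pcdha, Pcdhb and Pcdhg clusters, 12 other protocadherins and 21 cadherins. A peak interval belonged to them when the nearest end of any protein-coding gene to its midpoint, within 100 kb, was an end of 1 of these genes. This gave 235 of 91228 intervals in the 2iL list, 301 of 88810 in the 48 h list and 251 of 78055 in the 96 h list. The set is not purely neural, since it holds Cdh3 of epithelia and placenta, Cdh5 of endothelium, Cdh15 of muscle and Cdh16 and Cdh17 of kidney and gut.

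The data were ATAC-seq peak lists, which give the places where a transposase could insert adapters into DNA. E14, an established mouse embryonic stem cell line, was grown on gelatin in serum-free N2B27 medium with 2iL, that is the GSK3 inhibitor CHIR99021 at 3 µM, the MEK inhibitor PD0325901 at 1 µM and the cytokine LIF. The 3 groups were cells kept in 2iL and cells collected 48 h or 96 h after 2iL had been replaced by N2B27 alone, and all of them came from the same line and began in 2iL. Each group had 2 samples, A and B, but only 1 peak list for both, so no spread between samples could be measured, no test between conditions was possible, and every share below describes 3 lists. The labels do not say whether A and B were separate cultures.

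Cadherins hold cells together through calcium-dependent contacts between extracellular repeats, and the classical ones are tied to actin by catenins. Type I and type II cadherins sort cells during development, and many type II members mark sets of neurons. The clustered protocadherins are arrayed on 1 chromosome, where each alpha and gamma variable exon has its own promoter and is joined to constant exons shared by its cluster, and beta genes are unspliced. Neurons choose among these promoters, with CTCF and cohesin bringing promoter and enhancer together, and the chosen isoforms give a cell its surface identity. The non-clustered delta protocadherins act in cell sorting, axon growth and synapse formation.

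Of the 90 genes, 22 had at least 1 RefSeq promoter window (GRCm38.p6, the assembly of mm10), which covers 250 bases before and 50 bases after a transcript start. None of the 22 was a clustered gene. There were 25 windows, and 19, 21 and 22 of them, or 76.0%, 84.0% and 88.0%, were overlapped by an interval in 2iL and at 48 h and 96 h. The same held for 62%, 64.7% and 63.9% of all 21263 windows. The 3 windows that were in some lists but not in all belonged to Pcdh7 and Cdh12, overlapped at 48 h and 96 h, and to Pcdh15, overlapped at 96 h only. They are shown here beside the windows of Pcdh10 and Pcdh18, which were in all 3 lists, and of Cdh10, which was in none, and the capitals mark each CpG. In the same order they lie on chr5:57717831-57718130 (plus strand), chr15:21111202-21111501 (plus), chr10:73821617-73821916 (plus), chr3:45378148-45378447 (plus), chr3:49757267-49757566 (minus) and chr15:18820079-18820378 (plus).
Pcdh7: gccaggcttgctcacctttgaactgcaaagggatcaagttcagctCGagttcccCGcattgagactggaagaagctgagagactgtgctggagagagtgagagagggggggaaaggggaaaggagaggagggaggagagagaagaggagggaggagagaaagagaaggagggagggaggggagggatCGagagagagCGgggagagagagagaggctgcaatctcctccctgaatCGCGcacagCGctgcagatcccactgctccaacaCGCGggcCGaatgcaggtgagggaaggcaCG
Cdh12: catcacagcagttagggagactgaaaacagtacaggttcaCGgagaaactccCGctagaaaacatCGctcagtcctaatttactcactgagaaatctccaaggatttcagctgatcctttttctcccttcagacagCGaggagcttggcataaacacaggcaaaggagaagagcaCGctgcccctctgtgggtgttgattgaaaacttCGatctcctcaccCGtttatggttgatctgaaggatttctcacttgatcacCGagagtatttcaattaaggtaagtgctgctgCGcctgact
Pcdh15: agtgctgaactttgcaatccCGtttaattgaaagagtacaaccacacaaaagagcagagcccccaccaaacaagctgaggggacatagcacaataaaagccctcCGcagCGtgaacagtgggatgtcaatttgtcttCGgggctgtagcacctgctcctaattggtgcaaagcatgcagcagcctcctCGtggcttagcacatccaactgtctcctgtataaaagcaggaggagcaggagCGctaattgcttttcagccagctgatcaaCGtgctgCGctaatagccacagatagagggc
Pcdh10: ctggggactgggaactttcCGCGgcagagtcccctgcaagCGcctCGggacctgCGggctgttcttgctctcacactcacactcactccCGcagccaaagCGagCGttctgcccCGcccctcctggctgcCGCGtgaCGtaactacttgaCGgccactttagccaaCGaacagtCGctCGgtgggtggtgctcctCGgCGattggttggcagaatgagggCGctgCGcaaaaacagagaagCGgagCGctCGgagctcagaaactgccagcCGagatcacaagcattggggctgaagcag
Pcdh18: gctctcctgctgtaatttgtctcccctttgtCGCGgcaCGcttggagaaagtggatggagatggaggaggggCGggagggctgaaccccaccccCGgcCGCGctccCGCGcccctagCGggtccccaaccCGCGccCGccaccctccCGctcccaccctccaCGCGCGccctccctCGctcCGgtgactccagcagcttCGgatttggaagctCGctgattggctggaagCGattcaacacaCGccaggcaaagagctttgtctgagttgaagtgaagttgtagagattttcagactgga
Cdh10: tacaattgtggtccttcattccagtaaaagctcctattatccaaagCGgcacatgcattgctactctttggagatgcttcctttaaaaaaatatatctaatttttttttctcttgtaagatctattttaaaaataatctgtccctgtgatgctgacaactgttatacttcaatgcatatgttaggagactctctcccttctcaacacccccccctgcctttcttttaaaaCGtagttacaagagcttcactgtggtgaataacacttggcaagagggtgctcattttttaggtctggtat

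The 3 windows that were not in all lists held an intermediate number of CpGs. Pcdh7 had 11 CpGs, Cdh12 had 9 and Pcdh15 had 8, against 24 for Pcdh10, 23 for Pcdh18 and 2 for Cdh10. Their G and C content was 59.3%, 46.7% and 50.7%, against 62.3%, 63.0% and 37.7%. Over all 25 windows the median was 18 CpGs in the 19 windows found in every list, 9 in the 3 found in some and 4 in the 3 found in none, those of Cdh10, Cdh23 and Cdh26. Promoters of all genes had medians of 22, 7 and 2 in the same classes, so the order was that of promoters in general. Cdh20, with 18 CpGs, and Pcdh20, with 4 CpGs, were both in every list, so the number of CpGs did not by itself sort these windows. A window in no list can also lie close to a listed site. That of Cdh23 ended just short of a site at chr10:60696752-60697523, which had folds of 21.8, 20.2 and 17.2 in the 3 lists. Cdh10 likewise had an interval at its lower end in every list.

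Motif letters were searched on both strands of the 25 windows. The letters AGGGGGC, part of the CTCF motif, occurred in 6 windows (24.0%), those of Cdh6, Cdh8, Cdh24 and Cdh26 and both windows of Pcdh9, against 12.9% of all windows. Those of Pcdh9 overlap each other. TTCAGCACC, a part of the motif of the neural gene repressor REST, occurred in that of Cdh9 only, against 0.414% of all windows. The octamer ATGCAAAT occurred in that of Pcdh8 only, against 1.66%. TATAAA occurred in those of Pcdh8 and Pcdh15, against 12.6%, and it can be read in the Pcdh15 sequence above. These matches describe letters in the windows, not bound sites.

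The lists differed in length, and solving their fold and p values gave backgrounds of 14.2 tags per position in 2iL, 15.18 at 48 h and 13.99 at 96 h, a measure of depth if reads were extended alike. As a check of the labelled cells, the 5 naive pluripotency genes Zfp42, Esrrb, Klf4, Tfcp2l1 and Nanog had 83, 58 and 39 intervals, and the 4 formative genes Fgf5, Pou3f1, Otx2 and Dnmt3b had 25, 50 and 40. Pou5f1, Sox2 and Sall4, general pluripotency genes, had an interval within 1 kb of an end in every list. Such an end interval was present at 4, 5 and 5 of the naive genes although their intervals became fewer, and at 3 of the formative genes in each list. Expression was not measured, and an interval at an end is not read as expression here. Of other cell types, with 4 genes each, neural genes had 28, 34 and 36 intervals (2, 4 and 4 genes with one at an end), extraembryonic endoderm genes 15, 23 and 26 (2, 3 and 4), trophoblast genes 27, 27 and 34 (2, 3 and 3) and fibroblast genes 27, 24 and 27 (2, 2 and 3). In a bulk population, more cells with an open site and a wider opening in each cell cannot be told apart, and the part of other cell types in the counts below was not tested.

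Intervals at these genes were most numerous at 48 h as deposited, with 235, 301 and 251. When the lists were shortened to equal length by −log10 p the numbers were 203, 257 and 251, so 48 h then exceeded 96 h by little. Of the 90 genes, those with an interval numbered 77, 84 and 77 in the 2iL, 48 h and 96 h lists, and 6 genes lacked one throughout: Pcdha5, Pcdha8, Pcdha10, Pcdhb4, Pcdhb9 and Pcdhb11, all clustered. The intervals covered 169.9 kb in 2iL, 218.8 kb at 48 h and 176.5 kb at 96 h, with median widths of 675, 662 and 647 bp. By the authors' values their fold enrichment at the summit ran from 2.85 to 23.8 in 2iL, from 1.88 to 22.9 at 48 h and from 1.97 to 23.7 at 96 h, with medians of 8.52, 7.36 and 7.89. The medians over all intervals placed at a gene were 8.24, 8.10 and 8.82. Median distances to the gene end were 5.09, 5.28 and 5.89 kb, against 10.03, 9.11 and 8.84 kb for intervals in general. The branches differed in this. The densely packed clusters had medians of 1.05, 0.842 and 0.532 kb and the non-clustered protocadherins 4.58, 9.82 and 4.88 kb, while the cadherins, at 17.0, 17.6 and 19.1 kb, lay farther out than intervals in general. The share within 1 kb of an end was 26.4%, 23.3% and 26.7%, against 18.8%, 20.5% and 22.4%. Here too the branches differed. The clustered genes had 35 of 71, 44 of 85 and 37 of 60 intervals within 1 kb. The non-clustered protocadherins had 13 of 50, 11 of 77 and 15 of 66. The cadherins, with 14 of 114, 15 of 139 and 15 of 125, were below the background in every list. Gene bodies held 73.6%, 71.4% and 70.5% of them, against 60.04%, 59.3% and 60.3%. The body of any protein-coding gene counted, and annotated genes also span places between the clustered genes. Sites 47.1 kb past Pcdhb22 and 29.2 kb beyond the shared Pcdha end thus counted as inside a gene. This share was not taken by branch, so the excess is not shown outside the clusters.

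The order of the lists was not the same in every subfamily. The Pcdha cluster had 11, 19 and 12 intervals in 2iL and at 48 h and 96 h, the Pcdhb cluster 22, 25 and 17, and the Pcdhg cluster 38, 41 and 31. The delta-1 protocadherins (Pcdh1, Pcdh7, Pcdh9 and Pcdh11x) had 25, 40 and 30, and the delta-2 protocadherins (Pcdh8, Pcdh10, Pcdh17, Pcdh18 and Pcdh19) 16, 24 and 27. Pcdh12, Pcdh15 and Pcdh20 together had 9, 13 and 9. The 13 type II cadherins had 61, 86 and 79, the type I cadherins Cdh3, Cdh4 and Cdh15 had 30, 33 and 27, and the atypical cadherins Cdh13, Cdh16, Cdh17, Cdh23 and Cdh26 had 23, 20 and 19. By this placing, delta-2 protocadherins were thus most numerous at 96 h and atypical cadherins in 2iL, while the other 7 groups peaked at 48 h. The delta-2 genes were not alike in this. From 48 h to 96 h Pcdh8 went from 6 to 9, Pcdh17 from 3 to 5 and Pcdh19 from 4 to 6. Pcdh10 went from 5 to 4 and Pcdh18 from 6 to 3. For the atypical cadherins the order depends on the rule. Intervals inside the gene, wherever placed, numbered 27, 30 and 31 for Cdh13 and 19, 22 and 24 for Cdh23. They numbered 3, 1 and 2 for Cdh17, and 1 in each list for Cdh16 and Cdh26.

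**Figure D1:**
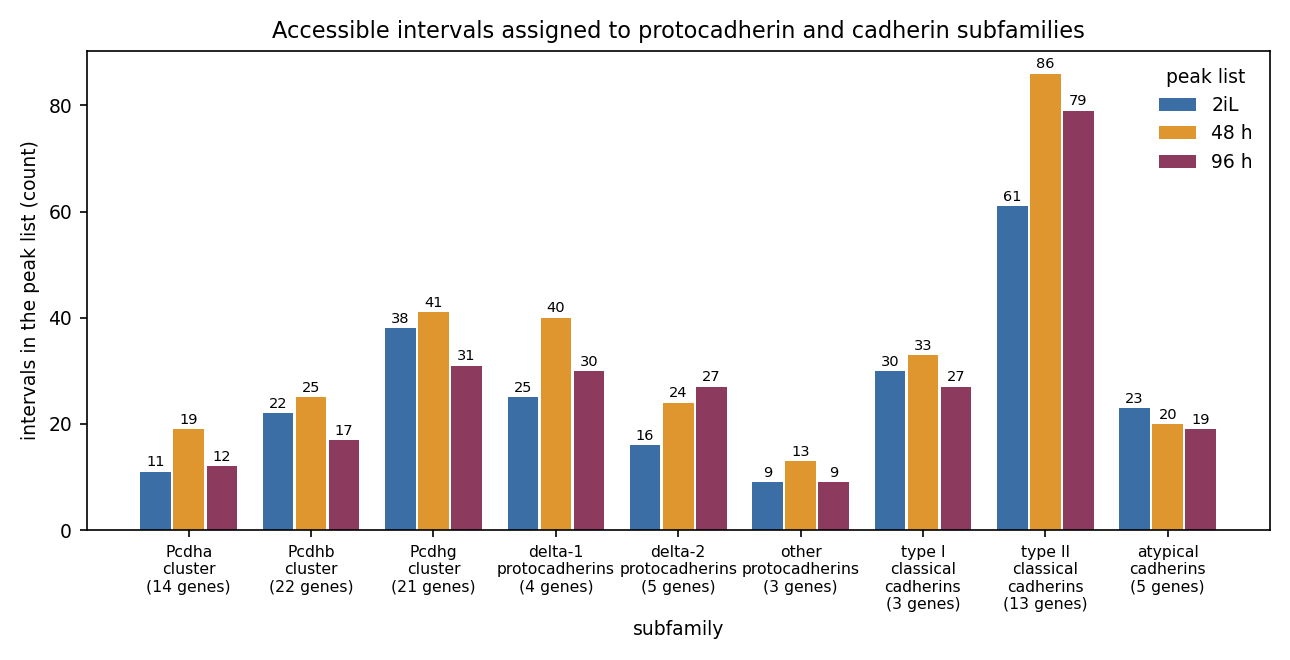
Number of accessible intervals (y axis, count) assigned to each protocadherin and cadherin subfamily (x axis, with its number of genes) in the 2iL, 48 h and 96 h peak lists, 1 bar per list. Type II cadherins had 61, 86 and 79 intervals, and 48 h was the highest bar in every group except the delta-2 protocadherins and the atypical cadherins.

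An interval was called lost when no interval of the later list overlapped it by at least 1 bp, and gained when none of the earlier list did. From 2iL to 48 h, 41 of 235 intervals (17.4%) were lost, against a background of 31.1% of all intervals placed at a gene, and 107 of 301 (35.5%) were gained, against 29.4%. The exact (Clopper-Pearson) 95% intervals were 12.8% to 22.9% and 30.1% to 41.2%, and neither held the background. For the gain this rested on the processing: the interval held the background with lists of equal length (26.6% to 38.4%, background 29.0%), within 20 kb of an end (22.0% to 34.8%, 26.2%), in the stronger 50% of the 48 h list (8.44% to 20.5%, 9.92%) and without Cdh22 (28.8% to 40.4%, 29.4%). These intervals cover counting error only and treat neighbouring intervals as independent. From 48 h to 96 h, 95 of 301 (31.6%) were lost against 29.7%, and 45 of 251 (17.9%) were gained against 18.9%, so this step was near the background in both directions. Across the whole span from 2iL to 96 h, 72 of 235 (30.6%, 24.8% to 37.0%) were lost against 42.9%, and 87 of 251 (34.7%, 28.8% to 40.9%) were gained against 32.5%. These comparisons share lists, so their shares are not independent of each other.

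The share lost by 48 h was below the background both away from gene ends and near them. Over 1 kb from an end 39 of 173 intervals (22.5%, 16.6% to 29.5%) were lost, against 36.6%. Within 1 kb, 2 of 62 (3.23%, 0.393% to 11.2%) were lost, a range that holds the 7.15% of all such intervals. Losses near ends were too few to tell whether the low loss holds there too. Among intervals in the stronger 50% of the 2iL list by −log10 p, 8 of 116 (6.90%) were lost against 14.7%, and among the weaker ones 33 of 119 (27.7%) against 48.4%. Gains were more frequent than in the background mainly far from gene ends, which includes places inside long genes. Over 20 kb from an end 50 of 98 intervals (51.02%, 40.7% to 61.3%) were gained by 48 h against 36.4%. Within 1 kb 11 of 70 (15.7%, 8.11% to 26.4%) were gained against 12.8%.

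The shares were not alike across the branches of the family, and their difference was not tested. By 48 h the clustered genes had lost 6 of 71 intervals (8.45%, 3.17% to 17.5%), the non-clustered protocadherins 5 of 50 (10%, 3.33% to 21.8%) and the cadherins 30 of 114 (26.3%, 18.5% to 35.4%), so the cadherins' interval held the background of 31.1% and the others' did not. The clustered genes gained 20 of 85 (23.5%, 15.0% to 34.0%), the non-clustered protocadherins 32 of 77 (41.6%, 30.4% to 53.4%) and the cadherins 55 of 139 (39.6%, 31.4% to 48.2%), against 29.4%. For the clusters the side depended on distance. Within 1 kb they gained 9 of 44 (20.45%, 9.80% to 35.3%), above 12.8%. Over 1 kb they gained 11 of 41 (26.8%, 14.2% to 42.9%), below 33.7%, and both ranges held their background. From 48 h to 96 h all 3 branches lost a share near the background of 29.7%, namely 28 of 85 (32.9%), 25 of 77 (32.5%) and 42 of 139 (30.2%). In that step the clustered genes gained 3 of 60 (5.0%, 1.04% to 13.9%), against 18.9%, the non-clustered protocadherins 15 of 66 (22.7%) and the cadherins 27 of 125 (21.6%). Within 1 kb the clustered genes gained 1 of 37 (2.70%) in that step, against 5.04%. Over 1 kb they gained 2 of 23 (8.70%, 1.07% to 28.0%), a range that holds the 22.9% of all such intervals. From 2iL to 96 h, the gains were 8 of 60 (13.3%, 5.94% to 24.6%) in the clusters, 27 of 66 (40.9%, 28.9% to 53.7%) and 52 of 125 (41.6%, 32.9% to 50.8%), against 32.5%. Over the same span 19 of 71 (26.8%), 11 of 50 (22.0%) and 42 of 114 (36.8%) were lost, against 42.9%. By distance, cluster gains over this span were 4 of 37 (10.8%) within 1 kb, against 11.7%. Over 1 kb they were 4 of 23 (17.4%, 4.95% to 38.8%), against 38.5%. Cluster losses were 3 of 35 (8.57%) within 1 kb, against 10.9%, and 16 of 36 (44.4%) over 1 kb, against 50.3%.

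**Figure D2:**
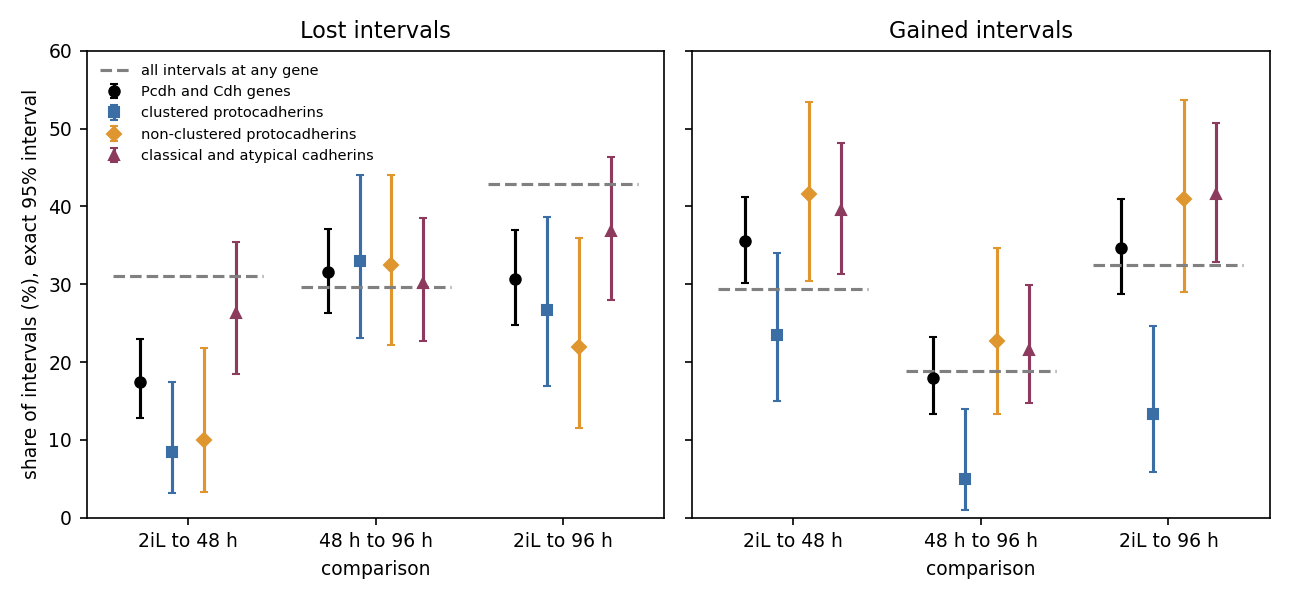
Share of intervals lost (left) and gained (right) in percent (y axis) for the 3 comparisons (x axis), for all Pcdh and Cdh genes and for each branch, with exact 95% intervals as bars and the share over all intervals placed at a gene as dashed lines. By 48 h the clustered (8.45%) and non-clustered (10%) protocadherins lost less than the dashed line at 31.1%, and from 48 h to 96 h the clustered genes gained 5.0%. The dashed lines cover all distances to a gene end and are not matched to the branches, which differ in distance.

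Counted by gene, 36 of the 84 genes with an interval in either list had more gained than lost intervals by 48 h and 10 had more lost than gained. These are 42.9% and 11.9%, against 33.4% and 33.5% of the 18102 protein-coding genes with an interval in either list. From 48 h to 96 h the balance was the other way, with 10 and 40 genes (11.9% and 47.6%), near the 17.6% and 44% of genes in general. Among the 12 non-clustered protocadherins 9 had more gained by 48 h and 1 more lost. No clustered gene had more gained than lost from 48 h to 96 h, and 21 of 51 (41.2%) had more lost. Merging intervals that overlapped across lists gave 376 sites, of which 154 (41.0%) were in every list, against 38.2% of all sites placed at a gene. Sites of the 2iL list only made up 33 (8.78%), against 20.2%, those of 48 h only 55 (14.6%), against 10.2%, and those of 48 h and 96 h but not 2iL 52 (13.8%), against 9.93%. Sites at 96 h only numbered 35 (9.31%, against 9.43%), those of 2iL and 48 h 39 (10.4%, against 10.1%) and those of 2iL and 96 h 8 (2.13%, against 1.86%). The 154 sites in every list had median widths of 721, 733 and 727 bp in 2iL and at 48 h and 96 h, against 796, 816 and 787 bp for all such sites, and those of the non-clustered protocadherins had 716, 695 and 707 bp.

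The clusters lie on chromosome 18, Pcdha at 36930285 to 37188897 (258.6 kb), Pcdhb at 37264998 to 37521419 (256.4 kb) and Pcdhg at 37661775 to 37841873 (180.1 kb), in mm10. Their genes are read in 1 direction, so the lower end is taken as the start here, and median spacings of the starts were 7.44, 7.84 and 5.37 kb. The copies are close in sequence, and how reads that map to several of them were handled is not given in the sources used here, so the absence of an interval at 1 copy is uncertain. In 2iL and at 48 h and 96 h an interval lay within 1 kb of the start of 4, 9 and 6 of 14 Pcdha genes, 4, 6 and 5 of 22 Pcdhb genes and 20, 21 and 19 of 21 Pcdhg genes. The same held for 38%, 40% and 37.8% of the lower ends of all 21887 protein-coding genes, some of which are starts and some ends. Nearly every gamma start was therefore listed in every state, and the alpha and beta starts only in part.

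**Figure D3:**
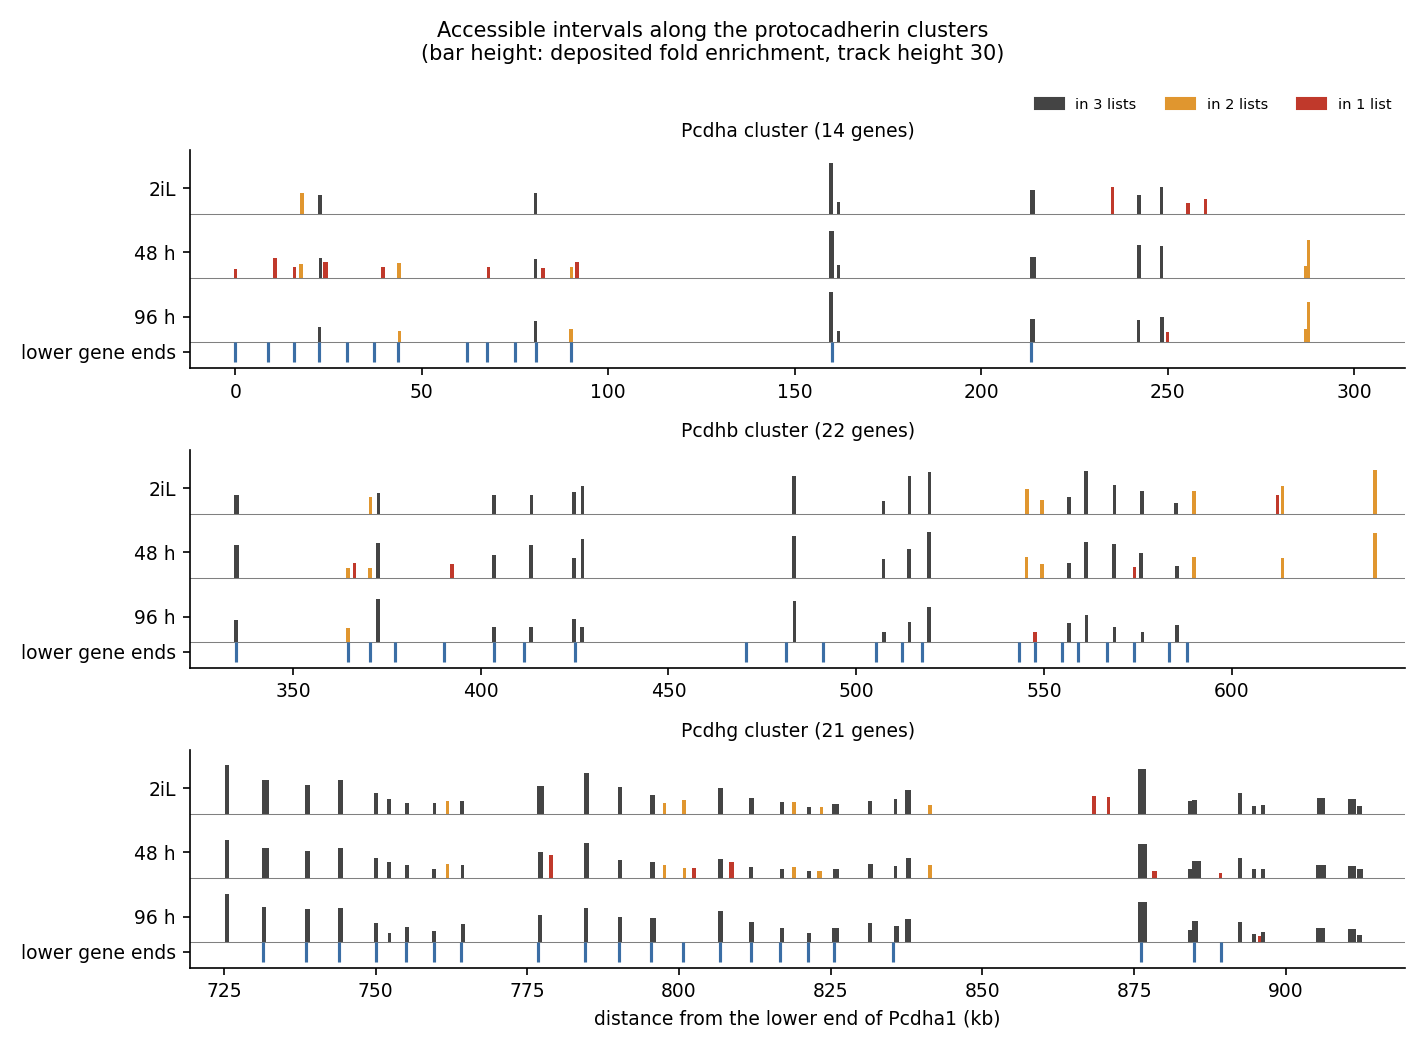
Intervals of the 2iL, 48 h and 96 h lists along the Pcdha, Pcdhb and Pcdhg clusters (x axis, kb from the lower end of Pcdha1), drawn to their position with the authors' fold enrichment as height within a track of 30, coloured by the number of lists that hold the site, above ticks for the lower ends of the genes. Of the 21 Pcdhg ticks 20, 21 and 19 carry an interval in the 3 lists, whereas in Pcdha 9 of 14 starts were marked at 48 h against 4 in 2iL.

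In the alpha cluster, 11 of 19 intervals at 48 h were gained (57.9%, 33.5% to 79.7%, against 29.4%), and 3 of 11 in 2iL (27.3%, against 31.1%) were lost by then. The starts of Pcdha4 and Pcdha11 had an interval in every list, as had those of Pcdhac1 and Pcdhac2, the C-type genes that are expressed in most neurons rather than chosen at random. The start of Pcdhac1 (chr18:37089606-37090498 in 2iL) carried the strongest interval of the whole set in 2iL and at 96 h, with folds of 23.8, 22.0 and 23.7 in 2iL and at 48 h and 96 h, and its 2iL fold was above that of 99.2% of the 2iL list. Among the alternate genes, the starts of Pcdha1, Pcdha3 and Pcdha9 had an interval at 48 h only, with folds of 4.39, 5.01 and 5.25. Those of Pcdha7 and Pcdha12 had one at 48 h and 96 h, with folds of 7.17 and 5.27 at Pcdha7 and of 5.44 and 6.07 at Pcdha12. Pcdha2 had an interval 1.80 kb from its start, at 48 h only, with a fold of 9.34. The 48 h list thus held 5 alpha starts that the 2iL list did not, and lacked none that it held.

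Some alpha intervals lay further inside a gene rather than at its start. Between 1 and 3 kb past a start, 2, 6 and 1 sites were listed in 2iL and at 48 h and 96 h, 4 of them at 48 h only. Pcdhac1 had the site found in every list, with folds of 5.71, 5.96 and 5.29. Beyond the shared end of the cluster, an interval 29.2 kb away (chr18:37217677-37218550) was absent from the 2iL list and had folds of 17.8 at 48 h and 18.7 at 96 h, above those of 92.6% and 91.4% of their lists. A weaker neighbour 28.5 kb from the end had the same pattern, with folds of 5.68 and 6.41. An enhancer of the alpha cluster called HS5-1 is known to lie downstream of the constant exons, but its position is not in the sources used here and no interval was matched to it. Before the shared end, sites 15.1 and 9.03 kb from it were in every list, with folds of 8.95, 15.5 and 10.3 and of 12.5, 14.9 and 11.96.

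The beta genes showed another layout, since most of their intervals lay inside the gene and not at its start. Sites 1 to 3 kb past a start, all of them inside the gene, numbered 15, 17 and 12 in the 3 lists, and sites within 1 kb of a start 4, 6 and 5. Of the 17 inner sites 12 were in every list. Pcdhb14 had an interval with folds of 19.5, 21.4 and 16.5, Pcdhb10 one with 17.8, 19.9 and 19.3, and Pcdhb18 one with 20.2, 17.0 and 12.7. The start of Pcdhb1, the gene that stands apart at the head of the cluster, was listed throughout with folds of 8.95, 15.3 and 10.4. Near an end, Pcdhb2 had intervals at 48 h and 96 h, Pcdhb20 at 48 h only, and Pcdhb12 and Pcdhb16 at 96 h only, where in Pcdhb12 the midpoint of an interval found in all 3 lists moved across the limit of 1 kb. Those of Pcdhb3 and Pcdhb15 were in 2iL and at 48 h and not at 96 h. Another site of Pcdhb3, 1.66 kb from an end, was in all lists with folds of 9.87, 16.2 and 20.4.

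By 48 h, 1 of 22 beta intervals (4.55%, 0.115% to 22.8%) was lost, against 31.1%, and 4 of 25 (16.0%, 4.54% to 36.1%) were gained, against 29.4%. From 48 h to 96 h 9 of 25 (36%, 17.97% to 57.5%) were lost, a range that holds the background of 29.7%. In that step 1 of 17 (5.88%, 0.149% to 28.7%) was gained, against 18.9%. Pcdhb22, the last beta gene, had 4, 3 and 0 intervals. The strongest, 47.1 kb past the gene (chr18:37567946-37569045 at 48 h), had folds of 20.4 in 2iL and 21.0 at 48 h, above those of 97.0% and 97.1% of the intervals of these lists, and no interval overlapped it at 96 h. The other sites of Pcdhb22, 1.12, 21.1 and 22.4 kb from its ends, were absent at 96 h too. All 3 distal ones lie between the beta and gamma clusters.

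In the gamma cluster, 30 of 44 sites (68.2%) were in every list and 20 of the 22 sites at starts were. By 48 h 2 of 38 intervals (5.26%, 0.644% to 17.7%) were lost, against 31.1%, and 5 of 41 (12.2%, 4.08% to 26.2%) were gained, against 29.4%. Most of them, 23 of the 38 and 24 of the 41, lay within 1 kb of an end. Of all intervals that near, 7.15% were lost and 12.8% gained, so the low gamma shares are not shown to be particular to this cluster. By the 2iL fold the strongest lay 5.98 kb from the start of Pcdhga1 (folds of 23.0, 17.6 and 22.7) and at the start of Pcdhgc3, a C-type gene (21.2, 15.7 and 18.9). Pcdhga7 (19.1, 16.2 and 16.0), Pcdhga3 (16.1, 13.9 and 16.1) and the start of Pcdhga1 (16.0, 13.9 and 16.7) followed, and the start of Pcdhgb7 had folds of 3.15, 3.35 and 4.46. Pcdhgb5 was the only gamma gene whose start was listed in 2iL (6.68) and at 48 h (4.64) and not at 96 h, and the site at the start of Pcdhgc5 was listed at 48 h only with a fold of 2.13. Sites 1 to 3 kb inside the genes were again most numerous at 48 h, with 6, 10 and 2 in the 3 lists. Of these, 4 were in 2iL and at 48 h only, at Pcdhgb2, Pcdhga8, Pcdhga10 and Pcdhgb7, and 4 at 48 h only, at Pcdhga6, Pcdhga9, Pcdhgb5 and Pcdhgc3. In the alpha, beta and gamma clusters this class thus held 1, 12 and 2 sites at 96 h against 6, 17 and 10 at 48 h. The 96 h list is shorter, 34.7% of all intervals over 1 kb from an end were lost in this step, and the class was chosen after its values were seen. Distances and classes come from interval midpoints, and whether these sites lie in exons could not be read from the gene table.

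Outside the clusters, Pcdh1 had the most intervals among protocadherins, with 17, 25 and 16 in the 3 lists. Pcdh1 is a delta-1 protocadherin of epithelia, endothelium and brain. None of its 17 intervals was lost by 48 h, 8 were gained, and 9 of 25 were lost from 48 h to 96 h. Its strongest interval, 74.1 kb from the gene, was in all lists with folds of 18.7, 18.1 and 22.0, and the intervals gained at 48 h had folds of 1.88 to 6.31. The delta-1 protocadherins together lost 0 of 25 intervals by 48 h, which allows a share of up to 13.7% by the exact interval, against the background of 31.1%. Pcdh1 held 17 of these 25, and the exact interval treats all of them as independent. The delta-1 genes gained 15 of 40 (37.5%, 22.7% to 54.2%), against 29.4%, and 25 of these 40 were at Pcdh1.

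Pcdh7, called NF-protocadherin for its role in neural folds and crest, had 4, 7 and 9 intervals and lost none of its 2iL intervals in either later list. Around its start 3 intervals were in every list, with folds under 5, and the interval over the promoter window printed above (chr5:57717840-57718409) was present at 48 h and 96 h with folds of 3.33 and 2.69. A site 17.5 kb inside the gene (chr5:57733386-57733890) was in all lists with folds of 15.5, 21.5 and 18.4. At 96 h only, intervals appeared 62.0 kb from an end (chr5:57777919-57778474, fold 14.1) and 41.6 kb from an end (chr5:58174330-58175307, fold 10.5). Pcdh9 had 2, 5 and 3 intervals and Pcdh11x 2, 3 and 2. A site of Pcdh9 69.6 kb from an end had folds of 9.41, 11.6 and 18.7.

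The delta-2 genes include regulators of early embryo morphogenesis. Pcdh8, or paraxial protocadherin, which acts in cell movements of the paraxial mesoderm, had 4, 6 and 9 intervals. Its start had folds of 12.4, 8.69 and 8.21, and a site 71.9 kb away was absent from 2iL and had folds of 11.4 and 10.1 at 48 h and 96 h. A further site 14.3 kb away was present at 96 h only, with a fold of 10.01. Pcdh10, or OL-protocadherin, had 2, 5 and 4 intervals. The CpG-rich promoter printed above lay under an interval with folds of 7.87, 5.22 and 5.80, and the strongest Pcdh10 interval, 7.48 kb from an end (chr3:45426811-45427396), was listed at 48 h only with a fold of 13.5.

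Pcdh18 had 2, 6 and 3 intervals, with 5 gained and 1 lost by 48 h and 3 lost from 48 h to 96 h. Its promoter, also printed above, had folds of 13.5, 12.02 and 16.2. An interval 12.1 kb from an end (chr3:49769231-49769727) was absent from 2iL and had folds of 19.6 and 18.4 at 48 h and 96 h, above those of 95.5% and 90.5% of these lists. Pcdh17, which acts at synapses, had 3, 3 and 5 intervals, and Pcdh19, the X-linked gene mutated in an epilepsy of girls, had 5, 4 and 6. The promoters of Pcdh17 (14.7, 11.7 and 12.2) and Pcdh19 (11.7, 11.2 and 12.2) were in every list. All 5 delta-2 genes had an interval within 1 kb of an end in every list, so no end of theirs went from no interval to some or the reverse.

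**Figure D4:**
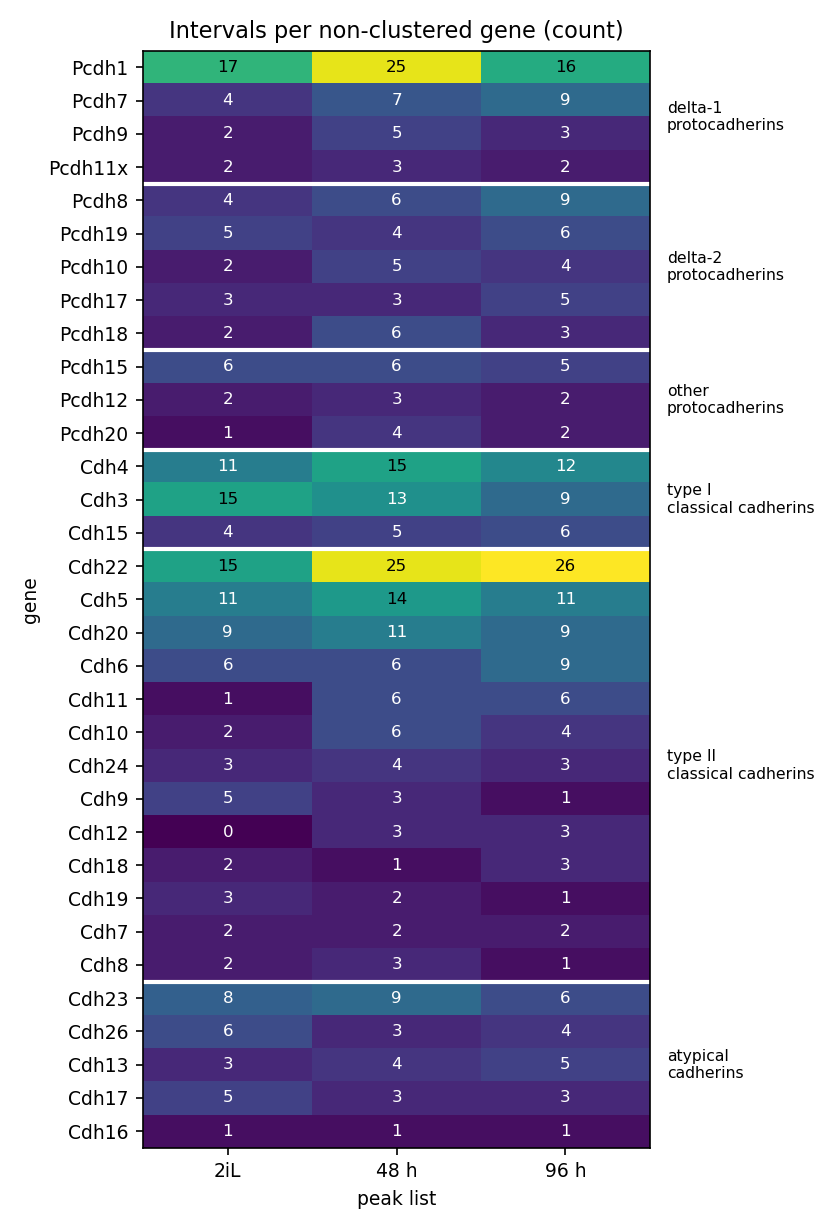
Number of intervals for each of the 33 genes outside the clusters (y axis, by subfamily) in the 3 peak lists (x axis), with lighter colours for higher counts. Cdh22 (15, 25 and 26) and Pcdh1 (17, 25 and 16) had the most, and Cdh12 had none in 2iL.

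Among the other protocadherins, Pcdh15, part of the tip links of hair cells in the inner ear, had 6, 6 and 5 intervals, and its promoter window was overlapped at 96 h by an interval over 100 kb from both gene ends, which is therefore not counted. Pcdh12, the endothelial protocadherin, had 2, 3 and 2. The site 0.553 kb from an end was in 2iL only with a fold of 5.25, and the site 12.5 kb away (chr18:38296451-38297267) was in every list with folds of 17.2, 21.8 and 22.3. Pcdh20 had 1, 4 and 2, and its start was among the strongest sites of the set with folds of 22.2, 19.1 and 22.7.

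Cdh22, the pituitary and brain cadherin, had 15 intervals in 2iL, 25 at 48 h and 26 at 96 h, or 66 over the lists, the highest sum of any of these genes. Pcdh1 had more in 2iL (17) and as many at 48 h. By 48 h 12 were gained and 2 lost, and from 48 h to 96 h 5 were gained and 4 lost. Of its sites, 11 lay in all lists, among them one 0.893 kb inside the lower end, with folds of 15.1, 16.1 and 17.5, and the one at the RefSeq start, with folds of 10.7, 7.23 and 9.25. Sites present at 48 h and 96 h but not in 2iL had folds between 3.42 and 9.92. The strong 2iL site 55.5 kb inside the gene (chr2:165166526-165167411, fold 14.4) was absent at 48 h and overlapped by an interval with a fold of 3.52 at 96 h.

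**Figure D5:**
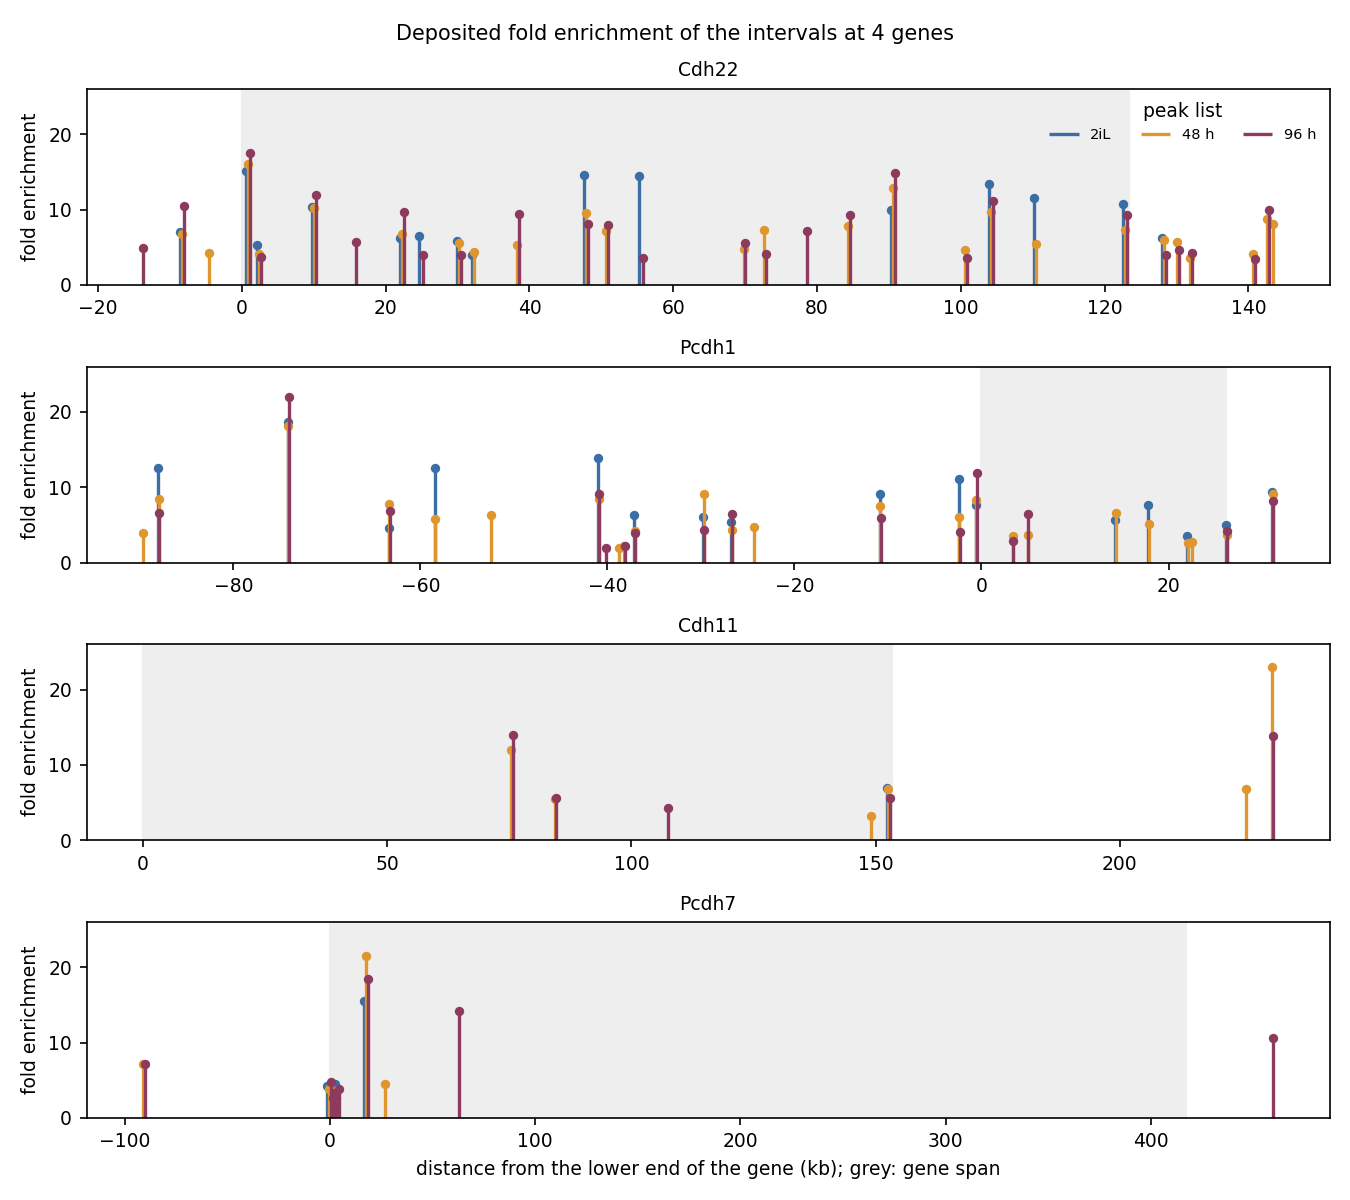
Fold enrichment by the authors' values (y axis) of the intervals at Cdh22, Pcdh1, Cdh11 and Pcdh7 against the distance from the lower end of the gene (x axis, kb), with the gene span in grey and 1 colour per list, points of different lists being set slightly apart. Cdh22 has 15, 25 and 26 intervals spread over the gene, and the Cdh11 interval of fold 22.9 at 48 h, beyond its upper end, has no 2iL counterpart.

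Of the type II genes, Cdh11, Cdh12 and Cdh10 had few intervals in 2iL and more later. Cdh11, the mesenchymal OB-cadherin, had 1, 6 and 6. Its upper end was listed throughout with folds of 6.90, 6.74 and 5.59, and a site 77.7 kb away (chr8:102862856-102863584) was absent from 2iL and had folds of 22.9 at 48 h, the highest of the set in that list, and 13.9 at 96 h. Another, 75.3 kb inside the gene, had folds of 11.99 and 13.9. Cdh12, a brain cadherin, had 0, 3 and 3 intervals. The one at its lower end (chr15:20448718-20449683) had folds of 10.8 and 18.6, and the others, 12.6 and 14.9 kb outside the gene, had folds of 8.16 and 8.87 and of 5.69 and 9.07. The Cdh12 promoter window printed above lies deep inside this long gene, over 100 kb from both ends, so the intervals over it at 48 h and 96 h are not among the 3.

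Cdh10, also a brain cadherin, had 2, 6 and 4 intervals. Its lower end (chr15:18818465-18819105 in 2iL) had folds of 23.2, 22.2 and 20.7, and the CpG-poor RefSeq window printed above, further inside, was not overlapped in any list. Further sites of Cdh10, 65.8 and 99.0 kb from an end, were listed at 48 h and 96 h with folds of 10.01 and 8.21 and of 7.36 and 9.34. Cdh20 had 9, 11 and 9 intervals. A site 21.4 kb outside it (chr1:104746623-104747340) was absent from 2iL and had folds of 20.8 and 23.1, above those of 96.9% and 97.6% of the lists. By 48 h Cdh20 gained 4 intervals and lost 2 (chr1:104903858-104904404 and chr1:104838118-104838752, both with a fold of 13.3 in 2iL), and from 48 h to 96 h it gained 3 and lost 5.

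Other type II genes differed from this. Cdh5, the endothelial VE-cadherin, had 11, 14 and 11 intervals, most of them outside the gene, and a site near its upper end was listed at 48 h and 96 h with folds of 4.14 and 8.05. Cdh6, the fetal kidney cadherin, had 6, 6 and 9, with 6 gained and 3 lost from 48 h to 96 h. Its site at chr15:13005591-13006478 had folds of 18.1 in 2iL and 13.8 at 48 h and was absent at 96 h, and another, 35.9 kb from the gene, was listed in 2iL (13.0) and at 96 h (14.2) but not at 48 h. Cdh9 had 5, 3 and 1 intervals, and its start, with folds of 5.66, 18.2 and 12.7, was the one that remained listed. Cdh19, of the Schwann cell lineage, had 3, 2 and 1 intervals, with folds up to 18.1, 17.1 and 4.67. Cdh7 had 2 in each list, Cdh8 2, 3 and 1, Cdh18 2, 1 and 3, and Cdh24 3, 4 and 3. Together the type II genes lost 10 of 61 intervals by 48 h (16.4%, 8.15% to 28.1%, against 31.1%) and gained 35 of 86 (40.7%, 30.2% to 51.8%, against 29.4%).

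The type I cadherins went different ways. Cdh3, or P-cadherin, lost 4 and gained 2 by 48 h and lost 5 and gained 1 after, and so had 15, 13 and 9 intervals. Its start had folds of 9.97, 10.2 and 8.02. Cdh4, the retinal R-cadherin, had 11, 15 and 12, with 7 gained and 3 lost by 48 h and 2 gained and 5 lost after, and a site 14.5 kb from its upper end had folds of 8.48, 19.5 and 12.3. Cdh15, or M-cadherin of muscle, had 4, 5 and 6.

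The atypical cadherins lost 13 of 23 intervals by 48 h (56.5%, 34.5% to 76.8%, against 31.1%) and gained 10 of 20 (50%, 27.2% to 72.8%, against 29.4%). The 23 lay far out, with a median distance of 27.6 kb. Of all intervals over 20 kb from an end 40.8% were lost, a share within the range above. The 23 also leave out 25 of the 27 intervals inside Cdh13 and 12 of the 19 inside Cdh23 in 2iL. Losses were at Cdh17 (4 of 5), Cdh26 (4 of 6), Cdh23 (3 of 8) and Cdh13 (2 of 3), and Cdh16 had the same single interval in each list. Cdh23, which pairs with Pcdh15 in tip links, had 8, 9 and 6 intervals. Its upper end (chr10:60696873-60697523 in 2iL) had folds of 21.8, 20.2 and 17.2, and a site 60.4 kb away (chr10:60635548-60636632 at 48 h) was gained with a fold of 14.2. Cdh13, the membrane-anchored T-cadherin, had 3, 4 and 5 intervals, and none of its 2iL intervals was overlapped at 96 h.

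Several of these genes are so long that many of their inner intervals lay over 100 kb from both ends and were not counted. Cdh13 held 25, 27 and 29 such intervals in 2iL and at 48 h and 96 h, Cdh4 11, 18 and 15, Cdh12 2, 5 and 5, Cdh18 5, 3 and 4, Cdh23 4, 5 and 5 and Pcdh15 2, 4 and 3. Other inner intervals lay nearer to an end of another gene and were placed there. In all, 12, 14 and 19 of the 19, 22 and 24 intervals inside Cdh23 were not placed at it. Counts at long genes are therefore lower bounds for the gene as a whole.

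The number of genes with an interval within 1 kb of either end was 55, 63 and 59 of 90 (61.1%, 70.0% and 65.6%), against 64.3%, 66.6% and 65% of all protein-coding genes, so it was near the background. It was 52 in every list and 24 in none. Besides the clustered genes named above, the genes with such an interval at either end in some lists only were Cdh12 and Cdh5, at 48 h and 96 h, and Pcdh12, in 2iL. Cdh3 had one at its lower end in every list and at its upper end in 2iL only. At the 33 genes outside the clusters the counts were 23, 24 and 24.

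Genes that work with these adhesion proteins had other counts. The 13 genes of cadherin-catenin adhesion had 127, 102 and 73 intervals and lost 62 of 127 (48.8%) by 48 h, against 31.1%. Cdh1 and Cdh2, the E- and N-cadherin left out of the set, had 14, 14 and 11 and 11, 8 and 7 of these. Pkp4 alone had 36, 14 and 5, and 24 of the 62 losses were at this gene. The 13 genes of the WAVE complex and kinases, through which protocadherins act on actin, had 80, 83 and 75 and lost 23 (28.8%). The 10 regulators of the clusters, among them Ctcf, cohesin subunits, Dnmt3b and Smchd1, had 50, 54 and 41 and lost 13 (26%), and Ctcf itself had 2 in each list. The 20 other members of the cadherin superfamily, such as Fat, Dachsous and Celsr genes, had 113, 116 and 101, with 32 lost (28.3%) and 34 gained (29.3%, against 29.4%).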

How the data were processed

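ATAC-seq was done on 6 samples, 2 in each of 3 groups, and the labels give both samples of a group the same list, so 3 peak lists, pooled or combined by the authors, were used. Per the submitters' processing notes, BWA, Picard, SAMtools and bcl2fastq 2.20.0.422 were used, with the build mm10. Information on the peak caller, its settings, the transposase shift and the treatment of reads mapping to several places is not given in the sources used here. A line of the deposited lists holds an interval with a score, a fold enrichment (a linear ratio), a −log10 p and the position of a summit. These are the authors' values. The deposited score and the deposited q column were not used, the summit position served an alternative, and the deposited fold and p-value only described, ranked or filtered intervals within a list. No per-sample values were left unused (0 columns).

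The lists held 187330, 185562 and 166089 summits. Where an interval had several summits, that of the highest −log10 p stood for it. Depth is not stated, and the background per position was solved from fold and p for 87.2%, 84.8% and 82.5% of the summits. Intervals were placed at the nearest protein-coding gene end within 100 kb of the midpoint (RefSeq gene table of GRCm38.p6), which placed 81060, 79002 and 68477. That table has no strand or exons, so introns, exons and UTRs could not be separated, and an interval placed at a gene need not act on it. The end shared by the Pcdhg genes is also an end of other annotated genes and was counted for Pcdhg. The background share is that over all placed intervals. Over whole lists it was 32.9% lost and 31.1% gained by 48 h, 30.6% and 21.1% from 48 h to 96 h, and 44.7% and 35.5% from 2iL to 96 h.

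Genes were named when they had at least 8 intervals in a list, were among up to 10 per comparison with the largest balance of gained and lost intervals and at least 4 changed, had an end listed in some lists only, or held 1 of the 5 strongest intervals of a list or of those lost or gained. Further genes and values, the classes of positions within clusters and the promoters printed were chosen after values were seen. The members and the gene lists were chosen with earlier results of these data known. The alternatives were a stricter overlap, stronger intervals, lists of equal length, another distance, gene bodies, summits, and sets without the clusters or without the gene with most intervals. Counting, placing and depth were tested on simulated data. Python 3.11.15, numpy 2.4.6, pandas 2.3.3, scipy 1.17.1 and matplotlib 3.10.9 were used.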

Additional observations from a re-analysis of the deposited data

How the results depend on the processing

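No paired analysis was possible because each group has 1 peak list for its samples A and B, and for the same reason no replicate could be left out. Of 102 shares recomputed under alternatives, 72 stayed within the 95% interval of the reported value and 30 moved beyond it, and of 18 recomputed counts of intervals 18 stayed within 1.5 times (with equal lengths, 203, 257 and 251 intervals). With only the stronger 50% of the compared list by −log10 p, an alternative that by construction leaves out weak intervals, the shares over all Pcdh and Cdh genes were lower in the list order used above: 6.90% lost and 13.7% gained by 48 h (background 14.7% and 9.92%), 10.1% and 2.54% from 48 h to 96 h (8.04% and 3.99%) and 17.2% and 14.4% from 2iL to 96 h (25.1% and 13.1%). For the clustered genes these were 2.70% and 7.5%, 10% and 0.0%, and 16.2% and 3.45%. For the non-clustered protocadherins the gain by 48 h was 12.5%, the later shares 3.13% and 3.33%, and those from 2iL to 96 h 11.1% and 16.7%. For the cadherins they were 11.5% and 17.9%, 13.4% and 3.39%, and 21.2% and 18.6%.

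With gene ends within 20 kb only, 12.05% were lost and 28.1% gained by 48 h (background 26.3% and 26.2%), and 24.1% lost and 25.3% gained from 2iL to 96 h (37.3% and 27.0%). With lists of equal length, 24.5% were lost from 48 h to 96 h over all genes and 22.2% over cadherins (background 24.1%). Without the clusters 41.4% were gained from 2iL to 96 h. The loss by 48 h and from 2iL to 96 h was below the background, and the gain by 48 h above it, under every alternative run, but the 95% interval of that gain held the background with equal lengths, at 20 kb, in the stronger 50% and without Cdh22, and that of the loss from 2iL to 96 h did in the stronger 50%. The gain from 48 h to 96 h went from below to above with equal lengths (22.7% against 22.4%), with gene bodies (22.3% against 19.8%) and without the clusters (22.0% against 18.9%), and the gain from 2iL to 96 h fell below at 20 kb. The causes were not tested. Weak intervals near the calling limit, and copies that share reads in the clusters, limit what an absence from a list shows.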
